A study of Arabidopsis thaliana with 12 samples.

Results

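The genes described here make chlorophyll and siroheme, and were picked by name from the array's single-gene features. They are 4 of the 691 genes with a feature of their own, in a table of 3439 features: HEMA3 (AT2G31250, feature 1995), CHLM (AT4G25080, feature 2091), AT1G74470 (feature 2360) and SIRB (AT1G50170, feature 353). Their levels in total RNA were measured in 6 samples of the Arabidopsis thaliana mutant pam46 and 6 wild-type (WT) samples, all in the ecotype Columbia 0. Per the labels, photosynthesis is altered in pam46 and the protein affected is unknown. The mutated gene, the number of mutant lines, the tissue, plant age and growth conditions are not stated in the labels. Samples are numbered 1 to 6 in each group, and no label ties them to separate plants, so the spread behind each p-value is that between samples and could be technical.

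Chlorophyll, heme and siroheme are tetrapyrroles, ring-shaped pigments and cofactors that plants build in plastids from glutamate carried on its transfer RNA. Glutamyl-tRNA reductase, encoded by the HEMA genes, catalyses the first step that commits glutamate to the pathway. The siroheme branch leaves before protoporphyrin IX, and SIRB, the sirohydrochlorin ferrochelatase, ends it by inserting iron. Siroheme is the cofactor of nitrite reductase and sulfite reductase. In the chlorophyll branch magnesium is inserted into protoporphyrin IX, CHLM adds a methyl group to the product, and the geranylgeranyl reductase encoded by AT1G74470 makes the phytyl tail that anchors chlorophyll in membranes and is also part of tocopherols.

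Of these genes, 2 were lower in pam46 (CHLM and SIRB), 1 was higher (AT1G74470) and 1 did not pass the test (HEMA3). The threshold for a call was an adjusted p under 0.05 from limma, fitted on log2 quantile-normalized intensity and adjusted over all genes or features tested. Among all features tested 41.1% were called (21.6% lower and 19.5% higher in pam46), so 3 called of 4 is to be read against a background in which many features moved. Samples with consecutive numbers (1 and 2, 3 and 4, 5 and 6) deviated together. Adjusted p-values of the fit on all 12 samples, and p-values of permutation tests over them, can therefore be too small. With such numbers averaged, 3 against 3, only CHLM of the 4 was called, beside 17.1% of all features (9.08% as lower in pam46). In RNA from a whole sample, fewer cells of a type and less RNA per cell cannot be told apart.

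**Figure D1:**
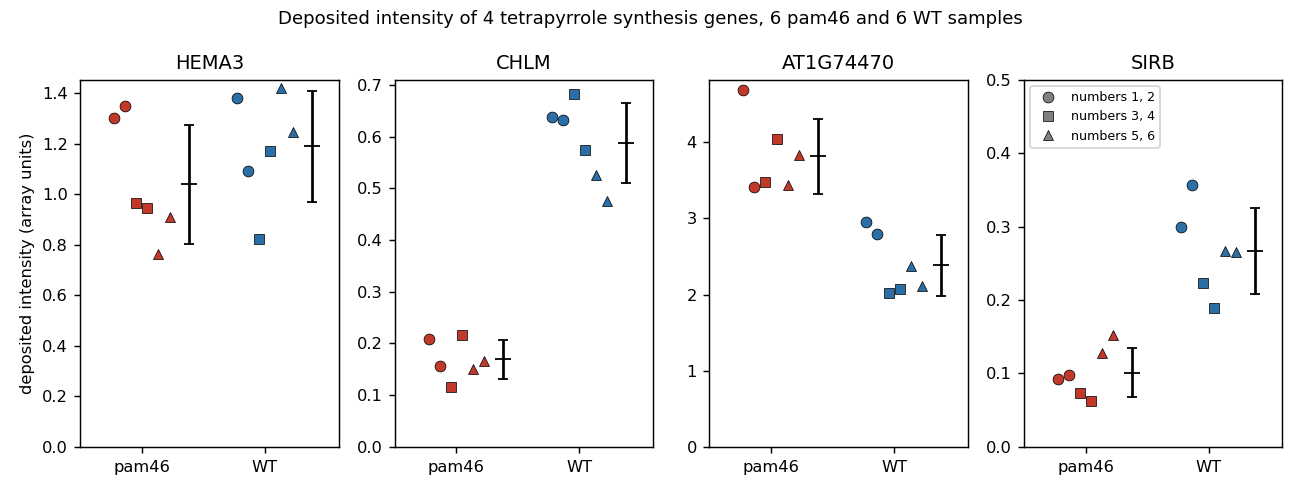
Deposited intensity (array units, linear axes from 0) of HEMA3, CHLM, AT1G74470 and SIRB, with the 6 pam46 samples left of the 6 WT samples in each panel; marker shapes give the sample numbers in pairs, and the bars beside the points are mean ± SD. The groups do not overlap for CHLM, AT1G74470 and SIRB and lie over each other for HEMA3. Among all features, 23.6% show no overlap with pam46 lower and 5.38% with pam46 higher.

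Summed intensities overlapped between the groups, at 3297 to 3561 in pam46 and 3290 to 3644 in WT, but medians did not, at 0.199 to 0.226 in pam46 and 0.296 to 0.341 in WT. How the samples are scaled therefore moves every fold change. Over all features the median log2 fold change was -0.36 without scaling and 0.09 with medians made equal. The calls split into 669 higher and 744 lower with quantile normalization, 373 higher and 1301 lower without scaling, 382 higher and 1274 lower once sums were made equal, and 899 higher and 642 lower once medians were. Array values carry no read depth. Precision is limited by the number of samples, whose spread could be technical.

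HEMA3 belongs to the small gene family of glutamyl-tRNA reductase, at the entry of the pathway. HEMA1 and HEMA2 of that family had no named feature, so HEMA3 does not speak for the family as a whole. The deposited intensity of HEMA3 had a lowest value of 0.763, a median of 0.954 and a highest value of 1.35 in pam46. In WT these were 0.822, 1.21 and 1.42. The ranges overlapped almost entirely. On average it was 1.04 ± 0.234 in pam46 and 1.19 ± 0.219 in WT (SD, n = 6 each). The log2 fold change was -0.13 ± 0.16 (SE), with a 95% interval from -0.48 to 0.22, or 0.717- to 1.16-fold, and it did not pass (adjusted p = 0.555, limma). An exact two-sided permutation test over the 924 ways of dividing the 12 samples gave p = 0.444. Within each sample the feature ranked between the 82.6th and 89.5th percentile of all features in pam46 and between the 82.4th and 90.7th in WT.

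The samples of HEMA3 did not move one way. Between samples of the same number, pam46 was lower in 4 and higher in 2 of the 6 comparisons, from -0.83 at number 5 to 0.44 at number 2 (log2 normalized intensity). The difference at number 6 was -0.41. Without numbers 5 and 6 the sign of the fold change turned (0.12, adjusted p = 0.656, limma), and it turned with equal medians too (0.36, adjusted p = 0.0901).

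Features with nearby numbers moved in a direction of their own. Of the 20 features nearest to HEMA3 in feature number, 15 were lower and 5 higher in pam46, with a median log2 fold change of -0.61. When the sample-by-sample deviation of these neighbours was subtracted, HEMA3 was called as higher in pam46 (0.77 ± 0.17 SE, adjusted p = 0.00285, limma). The value was 0.83 with 3 neighbours on either side (adjusted p = 0.00150) and 0.39 with 25 (adjusted p = 0.133), widths chosen after seeing the data. The layout of the array is not given, so nearby numbers need not be nearby spots, the subtraction also removes the neighbours' own differences, and their part in the result was not tested.

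CHLM, the magnesium-protoporphyrin IX methyltransferase of the chlorophyll branch, fell the most of the 4. Its deposited intensity was 0.116 at the lowest, 0.161 at the median and 0.216 at the highest in pam46, against 0.475, 0.603 and 0.682 in WT. The brightest pam46 sample thus lay below the dimmest WT sample by more than the range within either group. Such a gap with pam46 lower, of any size, was found for 23.6% of all features. By rank within a sample the feature stood between the 34.3rd and 52.5th percentile in pam46 and between the 63.6th and 77.9th in WT, a shift that no rescaling of a sample can alter.

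On the normalized scale CHLM fell by 1.31 on the log2 scale (0.16 SE, n = 6 per group, 95% interval -1.66 to -0.96), which is 2.48-fold (adjusted p = 8.16e-05, limma). Its log2 fold change was the 42nd lowest among the 691 single-gene features. The exact two-sided permutation test gave p = 0.00216, the smallest that 6 against 6 samples allow, and averages of consecutive numbers gave 0.10, the smallest that 3 against 3 allow. With those averages the model kept its call (adjusted p = 0.0139, limma). Fold changes ran from -1.82 on the values as deposited to -0.73 after the neighbours' deviation was subtracted (adjusted p = 0.00222), and CHLM passed as lower in all 29 alternatives run.

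Its neighbours were also mostly lower. Of the 20 features nearest in number to CHLM, 15 were lower in pam46 and 5 higher, with a median of -0.81 on the log2 scale, and their part in the size of the fall was not tested. CHLM was lower in pam46 at each of the 6 sample numbers, from -2.02 at number 3 to -0.97 at number 4. Both of these belong to 1 pair of consecutive numbers, in which pam46 sample 3 was the dimmest (0.116) and pam46 sample 4 the brightest (0.216) of its group.

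**Figure D2:**
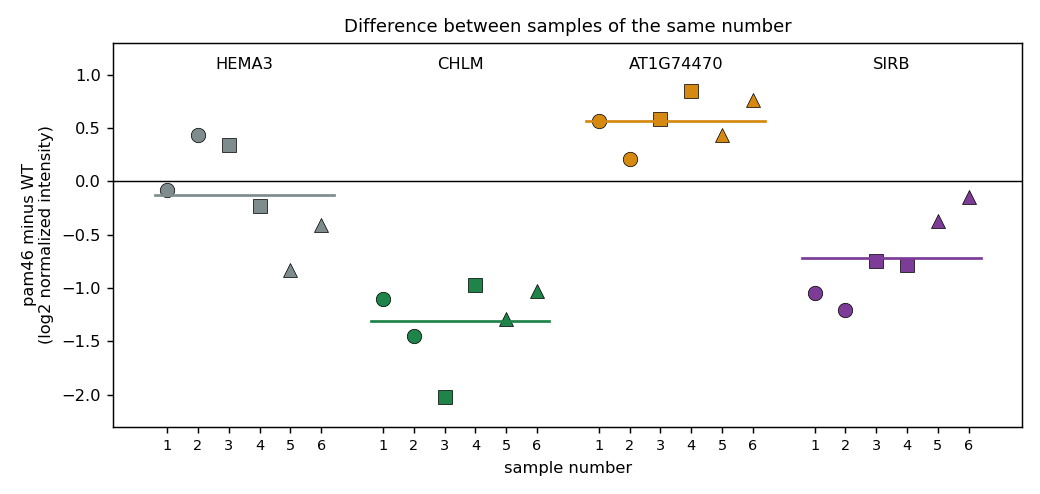
Difference in log2 normalized intensity, pam46 minus WT, between samples of the same number (1 to 6 on the horizontal axis within each gene); marker shapes group consecutive numbers and horizontal lines are the means over 6 differences. All 6 differences are below 0 for CHLM and SIRB and above 0 for AT1G74470, and those of HEMA3 run from -0.83 to 0.44.

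AT1G74470, the geranylgeranyl reductase, moved opposite to CHLM within the chlorophyll branch. Deposited intensity had its lowest value at 3.42, its median at 3.66 and its highest at 4.69 in pam46, against 2.02, 2.24 and 2.95 in WT. All pam46 values exceeded all WT values, as they did for 5.38% of all features. Means were 3.82 ± 0.493 in pam46 and 2.38 ± 0.399 in WT (SD, n = 6 each). The dimmest pam46 sample, number 2, stood at 3.42 and the brightest WT sample, number 1, at 2.95, a gap narrower than the range within either group.

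It rose 1.48-fold (log2 fold change 0.57 ± 0.12 SE, 95% interval 0.30 to 0.83, adjusted p = 0.00290, limma). The exact two-sided permutation test gave p = 0.00216, the smallest that 6 against 6 samples allow. Over averages of consecutive numbers it gave 0.10, the smallest that 3 against 3 allow. With consecutive numbers averaged the estimate was the same with a larger error (0.16 SE) and the call ended (adjusted p = 0.0663), as it did with those averages and the replicate block (adjusted p = 0.0633). The 6 differences between same-numbered samples ran from 0.21 at number 2 to 0.85 at number 4. Its 20 nearest features in number were balanced, with 11 lower and 9 higher in pam46, and subtracting their deviation left 0.61 (adjusted p = 0.0141). With equal medians the rise was 1.25 on the log2 scale.

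SIRB, the ferrochelatase that completes siroheme, was among the dimmer features. Its deposited intensity was 0.0621 at the lowest, 0.0952 at the median and 0.152 at the highest in pam46, against 0.190, 0.266 and 0.356 in WT. The groups did not overlap on this scale, with means of 0.101 ± 0.0336 in pam46 and 0.267 ± 0.0582 in WT (SD, n = 6 each). Such a gap with pam46 lower was found for 23.6% of all features. After quantile normalization the 2 groups of SIRB did overlap: the highest pam46 value was 0.179 (sample 6) and the lowest WT value 0.163 (sample 4). All 12 values were above the floor applied before taking logs, 0.0278.

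SIRB fell by 0.72 on the log2 scale (0.18 SE, 95% interval -1.12 to -0.32, n = 6 per group), or 1.64-fold (adjusted p = 0.00815, limma). Without scaling its log2 fold change was -1.44 (adjusted p = 0.000364). An exact two-sided permutation test on the normalized values gave p = 0.00433. Over averages of consecutive numbers it gave 0.10, the smallest that 3 against 3 allow. The call ended with consecutive numbers averaged (adjusted p = 0.118), with those averages and the replicate block (0.106), without numbers 1 and 2 (-0.51, adjusted p = 0.0959), and after subtracting the deviation of 10 neighbours on either side (-0.34, adjusted p = 0.119) or of 3 (-0.15, adjusted p = 0.563). With 25 neighbours it held (-0.44, adjusted p = 0.0298). Of the 20 nearest features 14 were lower in pam46 and 6 higher, with a median of -0.59, and their part in the fall of SIRB was not tested.

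The size of the SIRB difference followed the pairs of sample numbers. It was -1.05 and -1.21 at numbers 1 and 2, -0.74 and -0.78 at numbers 3 and 4, and -0.37 and -0.15 at numbers 5 and 6 (log2 normalized intensity, pam46 minus WT). Differences thus lay close to each other within a pair and apart between pairs. Deposited intensities also grouped by pair: pam46 samples 5 and 6 were the brightest of their group at 0.127 and 0.152, and WT samples 1 and 2 the brightest of theirs at 0.299 and 0.356. Differences of the deposited log2 values were -1.69, -1.87, -1.59, -1.61, -1.07 and -0.80 at numbers 1 to 6. On that scale numbers 1 and 2 were not clearly apart from 3 and 4.

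**Figure D3:**
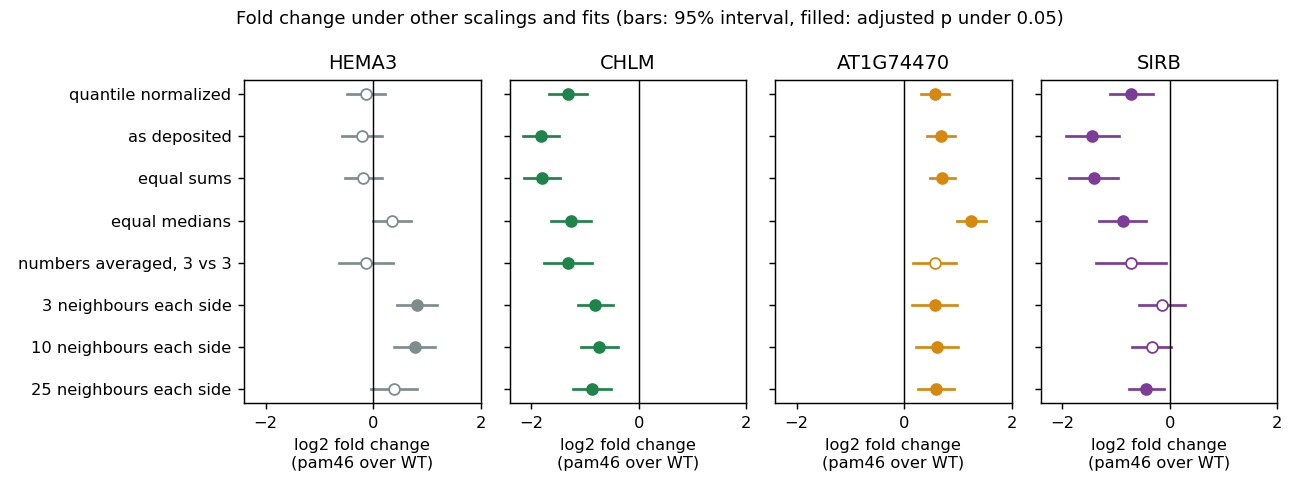
Log2 fold change, pam46 over WT (horizontal axes), with its 95% interval, for each gene under quantile normalization, 3 other scalings, averaging of consecutive sample numbers, and subtraction of the deviation of 3, 10 or 25 neighbours in feature number on either side. Filled circles have an adjusted p under 0.05: CHLM is filled in every line, AT1G74470 in all but the averaged fit, SIRB in 5 of the 8 lines, and HEMA3 only with 3 and 10 neighbours.

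The shift of one gene relative to another within the same sample is the same under any linear scaling of the samples. Quantile normalization is not linear, so ratios of deposited intensities come first. Between same-numbered samples, the log2 ratio of CHLM to AT1G74470 shifted by -2.50 ± 0.411 (pam46 minus WT, SD, n = 6), with single differences from -3.34 to -2.28. The pam46 and WT ratios did not overlap. The ratio of CHLM to HEMA3 moved by -1.61 ± 0.767, also without overlap, and that of AT1G74470 to SIRB by 2.12 ± 0.401 without overlap. CHLM against SIRB moved by only -0.38 ± 0.485, with 4 of 6 differences below 0 and overlapping groups, so the falls of these 2 genes were not separated by their spread on the deposited scale. The ratio of HEMA3 to SIRB moved by 1.24 ± 0.812, above 0 in 6 of 6 differences (lowest 0.17), and that of AT1G74470 to HEMA3 by 0.89 ± 0.563, above 0 in 5 of 6, while the groups as a whole overlapped for both. After quantile normalization, mean shifts were -1.88 for CHLM to AT1G74470, -1.18 for CHLM to HEMA3 and 1.29 for AT1G74470 to SIRB. CHLM to SIRB then moved by -0.59, HEMA3 to SIRB by 0.59 and AT1G74470 to HEMA3 by 0.70. How many other gene pairs separate without overlap was not counted. These ratios were chosen after the values were seen and are given as descriptions, without a test.

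Within the groups the genes had no common pattern. Deviations from the group means, taken over the 12 samples, gave Pearson's r of 0.42 between CHLM and AT1G74470, 0.37 between AT1G74470 and SIRB, 0.22 between AT1G74470 and HEMA3, and -0.26 to -0.24 for the other pairs of genes. All genes of a sample share that array, and samples with consecutive numbers deviated together, so these 12 points are not independent. The coefficient of variation of the deposited intensity was 22.1% in pam46 and 13.1% in WT for CHLM, 12.9% and 16.7% for AT1G74470, 22.5% and 18.4% for HEMA3, and 33.3% and 21.8% for SIRB.

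The wider pathway was covered thinly. Lists of 70 genes in 7 groups were drawn up for tetrapyrrole synthesis, chlorophyll turnover and plastid isoprenoid supply, and 5 of these genes had a feature of their own: the 4 described and AT1G78620. A further 6 had only features whose annotation lists several genes, which were not used, and 59 had no named feature. In the chlorophyll branch itself 2 of 17 genes were measured (1 higher, 1 lower), in the siroheme branch 1 of 4 (lower), and in the synthesis of aminolevulinic acid, the pathway's first stage, 1 of 8 (not passed). None of the 7 heme and bilin genes had a feature of its own.

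AT1G78620 encodes VTE6, a kinase that returns phytol released from chlorophyll toward tocopherol synthesis, and so handles the tail that the reductase AT1G74470 makes. Its deposited intensity was 0.562 to 1.87 in pam46 and 0.207 to 0.488 in WT. Every pam46 sample was brighter than every WT sample, as for 5.38% of all features. In both groups samples 1 and 2 were the brightest, with 1.87 and 1.67 in pam46 and 0.488 and 0.449 in WT. The gene rose by 2.23 ± 0.36 on the log2 scale (SE, n = 6 per group, adjusted p = 0.000509, limma), was called with averaging (adjusted p = 0.0427) and in all 29 alternatives, and ran from 1.85 on the values as deposited to 2.85 with the deviation of 3 neighbours on either side subtracted.

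**Figure D4:**
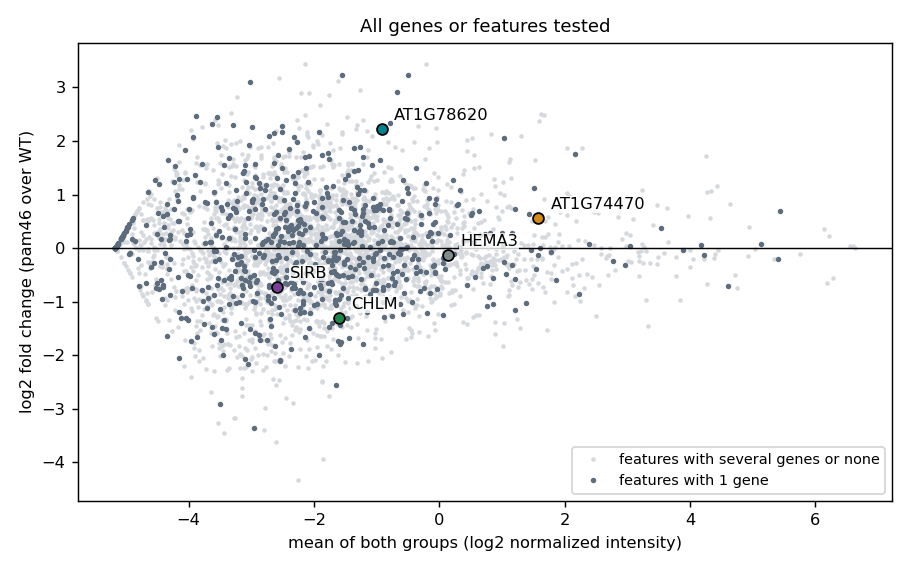
Log2 fold change, pam46 over WT, against the mean log2 normalized intensity of both groups for all genes or features tested; dark points are features with 1 gene, pale points features with several or none. CHLM (-1.31) and SIRB (-0.72) lie below 0, AT1G74470 (0.57) and AT1G78620 (2.23) above it, and HEMA3 (-0.13) close to it.

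The tissue could be checked only against leaf genes. Of 12 leaf mesophyll markers 3 had a feature of their own, LHB1B2, PRK and SBPASE, and no gene of the root, seed, flower and senescence lists did. The 3 were never at 0, and their summed deposited intensity was 20.01 to 29.6 in pam46 and 23.7 to 39.3 in WT, most of it from LHB1B2, a light-harvesting gene with near-identical copies. PRK (0.63) and SBPASE (0.48) of the Calvin cycle rose and LHB1B2 (-0.71) fell on the log2 normalized scale, though the sign of LHB1B2 turned with equal medians (0.084) and that of SBPASE on the values as deposited (-0.00093). With consecutive numbers averaged PRK was called (adjusted p = 0.0256, limma) and LHB1B2 was not (0.0702), and with the replicate block added LHB1B2 was called (0.0474) and PRK was not (0.0556). SBPASE was called in neither (0.226 and 0.196).

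Single-gene features most like each gene were ranked by Pearson's r of the log2 normalized values over the 12 samples, among 669 features that varied. For CHLM they were AT2G25640 (r = 0.95), AT2G43990 (0.95) and OTP70 (0.95). For AT1G74470 they were AT5G11650 (0.93), AT2G15440 (0.91) and AT1G22700 (0.90). HEMA3 was followed by AT2G38950 (0.91), GLR2.7 (0.73) and AT5G06010 (0.71), and SIRB by AT2G30320 (0.95), AT1G03810 (0.90) and LPA19 (0.89). Such r mostly reflects the difference between pam46 and WT where there is one.

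With the group means removed the ranking was mostly another one. CHLM was then closest to AT4G12740 (r = 0.81), AT1G05340 (0.73) and AT5G02830 (0.72), and AT1G74470 to AT2G48130 (0.81), AT2G02590 (0.79) and AGL26 (0.79). SIRB was closest to AT4G16610 (0.91), AT4G22490 (0.91) and AT2G22050 (0.88). HEMA3, which differed little between the groups, kept AT2G38950 (0.91) and GLR2.7 (0.72), with DRT101 (0.77) between them. These are the highest of many coefficients over samples that share their numbering, and are descriptions only.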

How the data were processed

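The deposited values are linear intensities per feature between 0 and 100. Steps the authors took before deposit (background correction, scaling, normalization) are not stated in the labels or the table. Of 3439 features, 692 have 1 gene in GEO's annotation of the platform (which may be outdated), 870 several and 1877 none. Names were matched by Entrez ID to RefSeq's table of assembly TAIR10.1, which matched 690 of the 692. Of 2 features of 1 gene, the brighter was kept.

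Values were quantile-normalized, set to a floor at the 5th percentile of positive values (0.0278), and log2-transformed. Fold changes are pam46 over WT, from lmFit and eBayes of limma 3.58.1 (R 4.3.3) on 6 against 6 samples, with two-sided p-values adjusted by Benjamini-Hochberg over all features kept. The fit was tested on simulated data. Exact permutation tests were run for 4 genes, unadjusted. Those over 6 against 6 treat the 12 samples as exchangeable. Flipping the signs of the 6 same-number differences gave p = 0.031 for CHLM, AT1G74470 and SIRB (exact sign-flip test). That is the smallest p this test allows, and HEMA3 gave 0.56.

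Same-numbered samples of the 2 groups deviated together (r = 0.24 to 0.57 in 6 pairs), and consecutive numbers within a group did too (0.26 to 0.67). Consecutive numbers across the groups also did (0.13 to 0.42). The median was 0.39 for same numbers and 0.30 for consecutive numbers across the groups. The ranges overlap, so the check leans to single numbers but does not settle whether samples pair by single or by consecutive numbers. This pairing comes from the numbers in the labels and this check. No 2 samples held identical values. Members, lists and tests were chosen with earlier results of these data known. Named genes were the 4 members, all list genes on a single-gene feature, and for each member the 3 features with the highest r by each measure. Alternatives covered scaling, floor, dim features, replicate block, averaging, random block, array weights, neighbours and samples left out.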

Additional observations from a re-analysis of the deposited data

Results flagged for a closer look

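In 30 named genes, 60 groups of 6 samples were tested with Dixon's ratio, the gap of an end sample to its nearest other divided by the group's range. The ratio exceeded its 95% critical value in 4 groups, and chance alone marks about 1 in 20. No group of HEMA3, CHLM, AT1G74470, SIRB or AT1G78620 was among them, and all 4 belong to genes named for their likeness to these. On the log2 normalized scale, AT2G43990 had -2.06 in WT sample 5, below a range of -1.25 to -1.02 in the remaining WT samples. AT2G48130 had -1.53 in pam46 sample 1, above -2.03 to -1.85 in the remaining pam46 samples. AGL26 had -0.46 in the same sample, above -1.49 to -1.12. AT5G06010 stood at the floor of -5.17 in pam46 sample 5, below -3.37 to -2.77.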

How the results depend on the processing

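The windows of 3 and 25 neighbours were chosen after the data were seen. The count of 1413 calls fell to 587 when consecutive numbers were averaged (3 against 3) and to 693 when a replicate block was added to that. It fell to 922 with consecutive numbers as a random block, a fit that keeps all 12 samples. The reason for these falls was not tested. The count stayed within 1.5 times in the other 26 of 29 alternatives, at 1315 to 1390 with 1 sample left out. CHLM kept its call in all 29, AT1G74470 in 27 and SIRB in 24. With averaging, alone or with the replicate block, AT1G74470 (0.57) and SIRB (-0.72) lost theirs, and SIRB also did with 10 neighbours (-0.34), 3 neighbours (-0.15) or without numbers 1 and 2 (-0.51). HEMA3 turned sign with equal medians (0.36), with 10 (0.77), 3 (0.83) and 25 neighbours (0.39), and without numbers 5 and 6 (0.12); the cause was not tested. Leaving out any 1 sample changed no call of these 4. LHB1B2 turned with equal medians (0.084) and SBPASE on the values as deposited (-0.00093), and SBPASE was called in 14 of 29. The replicate block on all 12 samples changed no call of these 4 genes (CHLM -1.31, adjusted p = 0.00105, limma). Signal over background is not given, so what dimness limits could not be set.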
